A study of Bos taurus with 6 samples.

Results

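The solute carriers described here move amino acids and related small molecules across membranes. They were taken by gene symbol, as every gene of the families SLC1, SLC3, SLC6, SLC7, SLC36, SLC38 and SLC43, which gave 58 of the 34733 named genes in the files, and were placed in 16 transport systems or substrate classes. Their RNA was measured in sorted cells from the uterine lining (endometrium) of the cow, Bos taurus. Healthy luteal-phase uteri came from slaughterhouses, with the cycle stage judged from the ovaries, and stromal cells were freed by collagenase from endometrium stripped of its luminal epithelium. Side population (SP) cells, which pump out the DNA dye Hoechst 33342, and main population (MP) cells, which retain it, were sorted after dead cells had been excluded with propidium iodide, and verapamil, a blocker of the exporter, was used beside the dye alone. There were 3 SP and 3 MP libraries, with no treatment or genotype that set them apart. The column names of MP alone bear the word micro, unexplained in the labels, so any difference in handling that it marks and the cell population cannot be told apart. The number of animals and any pooling of them are not stated in the labels, so p-values measure the spread between these libraries, which may be technical in part.

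Amino acid carriers are grouped by substrate and by what drives them. Systems A, N and ASC and the acidic system X-AG draw on the sodium gradient, system y+ carries cationic amino acids such as arginine, and the light subunits of SLC7 reach the surface only when bound to a heavy subunit, SLC3A2 (4F2hc, also CD98) or SLC3A1, and exchange one amino acid for another. Others sit on lysosomes, where SLC38A9 reports arginine to the growth kinase mTORC1. In ruminants the endometrium also passes amino acids into the uterine lumen, where the early embryo feeds on them.

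Values are FPKM, fragments per kilobase of transcript and per 1e6 mapped fragments, so levels of different genes can be compared per length. The sums of FPKM ran from 647501 to 963629 per library. The steps of the lowest values put the relative depth at 1.60 and 1.82 in SP replicates 2 and 3 and at 2.33, 3.19 and 1.99 in MP replicates 1 to 3, with SP replicate 1 as the unit, so values near 0 in SP rest on few fragments. The sorted populations also differed in other cells' markers. Of 18 tested endothelial markers 16 rose in SP, with a summed level of 1972 to 3163 FPKM in SP and 216 to 1193 FPKM in MP, where MP replicate 3 was the highest. Of 18 markers of stromal fibroblasts 16 fell, with sums of 342 to 564 FPKM in SP and 3372 to 12454 FPKM in MP. Of 13 pericyte and smooth muscle markers 8 fell (sums 360.2 to 568 FPKM in SP and 1263 to 2122 FPKM in MP), and of 5 mast cell markers 4 fell (14.9 to 34.0 and 408 to 986 FPKM). Of 13 myeloid markers 11 fell, with sums of 124 to 146 FPKM in SP and 689 to 1245 FPKM in MP, and the 8 tested T and NK cell markers all fell. The filter on low values, described with the test, allowed no other direction for 6 of the 13 myeloid, 6 of the 8 T and NK, 2 of the 5 mast cell and 2 of the 18 fibroblast markers, which were under 1 FPKM in every SP library. CD8B, which fell, and GZMA, which was not tested, were listed at 0 in every SP library. The part of these cell markers in the transporter results was not tested, and in sorted bulk samples fewer cells of a type and less RNA per cell cannot be told apart.

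Amino acid transporter RNA was concentrated in 5 genes, picked by their level in these same libraries. Of these, 4 rose in SP and SLC1A5 did not pass, where 20.5% of all tested genes were called higher. The calls of SLC3A2 and SLC7A5 were lost without some single libraries, as given below. The summed FPKM of the 58 genes was 1988, 1131 and 1068 in SP replicates 1 to 3 and 452, 439 and 763 in MP replicates 1 to 3. These sums made up 0.228%, 0.151% and 0.165% of all FPKM in SP and 0.0561%, 0.0508% and 0.0792% in MP, so every SP library lay above every MP library. SLC3A2, SLC38A2, SLC1A5, SLC7A1 and SLC7A5 held 88.5% to 91.3% of the sum in SP and 74.5% to 85.6% in MP. Without SLC3A2 and SLC38A2 the sums were 559, 379 and 343 FPKM in SP and 204, 249 and 321 FPKM in MP, still apart but closer.

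Testing was limited to genes that reached 1 FPKM in 3 or more libraries, and used limma on log2(FPKM + 1), a scale that understates the change of low genes. Of the 58 transporters 29 passed this filter. Of these, 9 rose in SP, 5 fell and 15 did not pass (Benjamini-Hochberg adjusted p under 0.05 over 12127 genes). For 2 of the 5 that fell, SLC38A5 and SLC38A11, the filter allowed no other direction. The background is wide, since 20.5% of all tested genes were called higher in SP and 18.7% lower, 39.2% in all. The transporters called higher made up 31.0% of those tested and those called lower 17.2%, and the 29 had a median log2 fold change of −0.09 against 0.01 for all tested genes. The values of SP and MP did not overlap for 16 of the 29, or 55.2%, against 54.8% of all tested genes. As a family the transporters thus did not move one way. Left without 1 library, the counts ranged from 5 to 10 higher and from 2 to 5 lower. They were 5 higher without SP replicate 1, MP replicate 1 or MP replicate 2. Counts of lower transporters were 2 without SP replicate 1 and 3 without SP replicates 2 or 3 or MP replicates 1 or 2. With replicate number 1 or 2 left out of both groups, which leaves 2 libraries against 2, 0 and 1 were called higher and 2 and 1 lower.

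**Figure D1:**
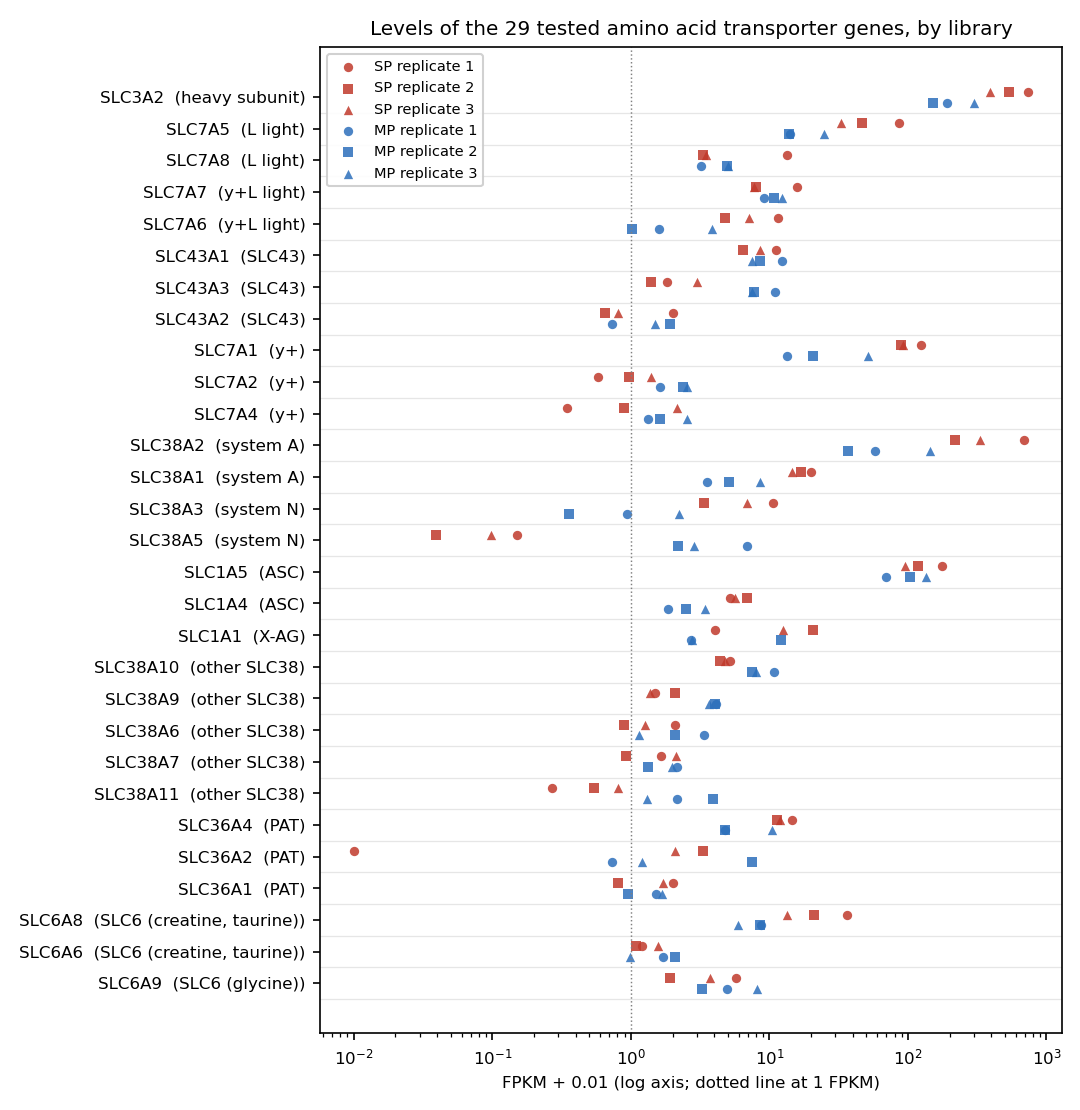
FPKM + 0.01 of the 29 tested transporter genes on a log axis, with SP libraries in red and MP libraries in blue, 1 symbol per replicate number and genes grouped by transport system. SLC3A2, SLC38A2, SLC7A1 and SLC7A5 lie higher in every SP library than in any MP library, while SLC38A5 lies under 1 FPKM in SP and from 2.19 to 6.85 FPKM in MP; a point at 0.01 is a gene listed at 0.

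System A, the sodium-driven uptake of small neutral amino acids such as alanine and glutamine, had a pair of tested members, and both rose. SLC38A2 (SNAT2; chromosome 5, 33849756 to 33865223 on ARS-UCD1.2) is its widely expressed member, whose amount is known to adapt to amino acid supply. It had 691, 218 and 333 FPKM in SP, given here and throughout in the order of replicates 1 to 3, against 57.5, 37.0 and 143 FPKM in MP. The groups did not overlap, with SP replicate 1 highest and MP replicate 3 nearest to SP. Its log2 fold change was 2.43 ± 0.57 (SE, n = 3 each; limma adjusted p = 0.0147). SLC38A1 (SNAT1, chromosome 5, 33920668 to 33999849), a close relative, was at 20.1, 16.8 and 14.4 FPKM in SP and at 3.54, 5.07 and 8.55 FPKM in MP. It rose by 1.49 ± 0.31 (SE; limma adjusted p = 0.0105), again with no overlap and with MP replicate 3 the highest MP library. The third member, SLC38A4 (SNAT4), went the other way in its values: it was listed at 0, at 0.0273 and at 0.0956 FPKM in SP and was at 1.94, 0.982 and 0.456 FPKM in MP, under the filter and so not tested. SLC38A2 alone held 92.8% to 97.2% of the FPKM of system A in SP and 86.0% to 94.1% in MP. Both calls held without any single library, and SLC38A2 lost its call without replicate number 1 or 2 in both groups (limma adjusted p = 0.106 and 0.0579), as did SLC38A1 (0.0782 and 0.0868).

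System N, which carries glutamine, histidine and asparagine with sodium in and protons out, was led by a different member in each population. Both members were present in MP. SLC38A3 (SNAT3, chromosome 22, 50131902 to 50146721) was at 10.6, 3.37 and 6.89 FPKM in SP and at 0.926, 0.347 and 2.22 FPKM in MP. It rose by 1.86 ± 0.44 (SE; limma adjusted p = 0.0153). SLC38A5 (SNAT5, chromosome X, 86584142 to 86593407) was at 0.140, 0.0291 and 0.0885 FPKM in SP and at 6.85, 2.19 and 2.84 FPKM in MP, and it fell by 2.08 ± 0.34 (SE; limma adjusted p = 0.00484). Since all SP values of SLC38A5 were under 1 FPKM, the filter fixed its direction in advance. The summed level of the system was alike in range, 3.40 to 10.8 FPKM in SP and 2.54 to 7.78 FPKM in MP. SLC38A3 made up 98.7%, 99.1% and 98.7% of that sum in SP replicates 1 to 3, but 11.9%, 13.7% and 43.9% in MP replicates 1 to 3. MP replicate 3, the MP library with the highest endothelial markers, again stood nearest to SP. Neither call was lost without a single library; SLC38A3 lost its call without replicate number 1 in both groups (limma adjusted p = 0.103).

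Among the heteromeric exchangers the heavy subunit and 2 of the light subunits rose. SLC3A2 (chromosome 29, 41158503 to 41199498) was the most abundant transporter gene in both populations, at 739, 535 and 391 FPKM in SP and at 190.4, 152 and 299 FPKM in MP. It rose by 1.38 ± 0.34 (SE; limma adjusted p = 0.0173), and its lowest SP library lay above its highest MP library. SLC7A5 (LAT1, chromosome 18, 13298159 to 13326788), the light subunit that takes up leucine and other large neutral amino acids, was at 85.5, 46.5 and 32.7 FPKM in SP and at 14.1, 13.9 and 24.9 FPKM in MP. Its rise was 1.52 ± 0.39 (SE; limma adjusted p = 0.0204). Both calls rested on particular libraries: SLC3A2 lost its call without SP replicate 1, MP replicate 1 or MP replicate 2 (limma adjusted p = 0.0568, 0.0528 and 0.0606), and SLC7A5 without the same libraries (0.0555, 0.0618 and 0.0652).

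The other system L light subunit, SLC7A8 (LAT2), did not pass. It was at 13.4, 3.33 and 3.50 FPKM in SP and at 3.18, 4.97 and 5.05 FPKM in MP, with a log2 fold change of 0.30 (95% interval −0.79 to 1.39). SP replicate 1 stood above the rest and the groups overlapped otherwise. The make-up of system L differed between the populations, with SLC7A5 at 86.5%, 93.3% and 90.3% of the light subunit FPKM in SP and at 81.5%, 73.7% and 83.2% in MP. The log2 ratio of SLC7A5 to SLC7A8 within a library was higher by 1.23 in SP, without overlap (exact two-sided permutation p = 0.1, the smallest that 3 against 3 libraries allow; 0.2 adjusted over 12 pairs). By contrast the log2 ratio of SLC7A5 to SLC3A2 was −3.38 ± 0.24 in SP and −3.52 ± 0.15 in MP (SD, n = 3 each), with overlapping groups (exact permutation p = 0.6). The heavy subunit exceeded the sum of its 6 light subunits 5.80, 8.52 and 7.56 times in SP replicates 1 to 3 and 6.76, 4.90 and 6.39 times in MP replicates 1 to 3, ranges that overlap.

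System y+L, which exports cationic amino acids in exchange for neutral ones with sodium, is formed by SLC7A6 (y+LAT2) and SLC7A7 (y+LAT1). SLC7A6 (chromosome 18, listed locus 35640931 to 35680832) was at 11.6, 4.79 and 7.12 FPKM in SP and at 1.58, 1.01 and 3.87 FPKM in MP. It rose by 1.52 ± 0.41 (SE; limma adjusted p = 0.0237), and the groups did not overlap. Its listed locus is shared with SLC7A6OS, whose reads may not be told apart from it without strand. SLC7A6OS did not pass, at 12.8, 10.0 and 14.1 FPKM in SP and 13.0, 16.6 and 22.8 FPKM in MP. SLC7A7 was at 15.8, 7.98 and 7.74 FPKM in SP and at 9.11, 10.8 and 12.3 FPKM in MP, with a log2 fold change of −0.09 (95% interval −0.80 to 0.63). SLC7A6 accordingly held 42.3%, 37.5% and 47.9% of the y+L FPKM in SP and 14.7%, 8.56% and 24.0% in MP. The log2 ratio of SLC7A6 to SLC7A7 was higher by 1.61 in SP, without overlap (exact permutation p = 0.1; 0.2 adjusted over 12 pairs). The call of SLC7A6 was lost without SP replicates 1 or 3 or MP replicates 1 or 2 (limma adjusted p = 0.0753, 0.0607, 0.0680 and 0.0737) and with no filter on low values (0.0617).

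The remaining light subunits were near the limit of what these libraries show. SLC7A11 (xCT), which brings in cystine for glutathione in exchange for glutamate, was at 1.18, 0.134 and 0.593 FPKM in SP and at 0.0309, 0.178 and 0.184 FPKM in MP, and was not tested. SLC7A10 (Asc-1) did not exceed 0.427 FPKM in any library. SLC7A9 and its heavy partner SLC3A1, which form the cystine and cationic amino acid carrier of kidney and gut, did not exceed 0.0476 and 0.190 FPKM.

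**Figure D2:**
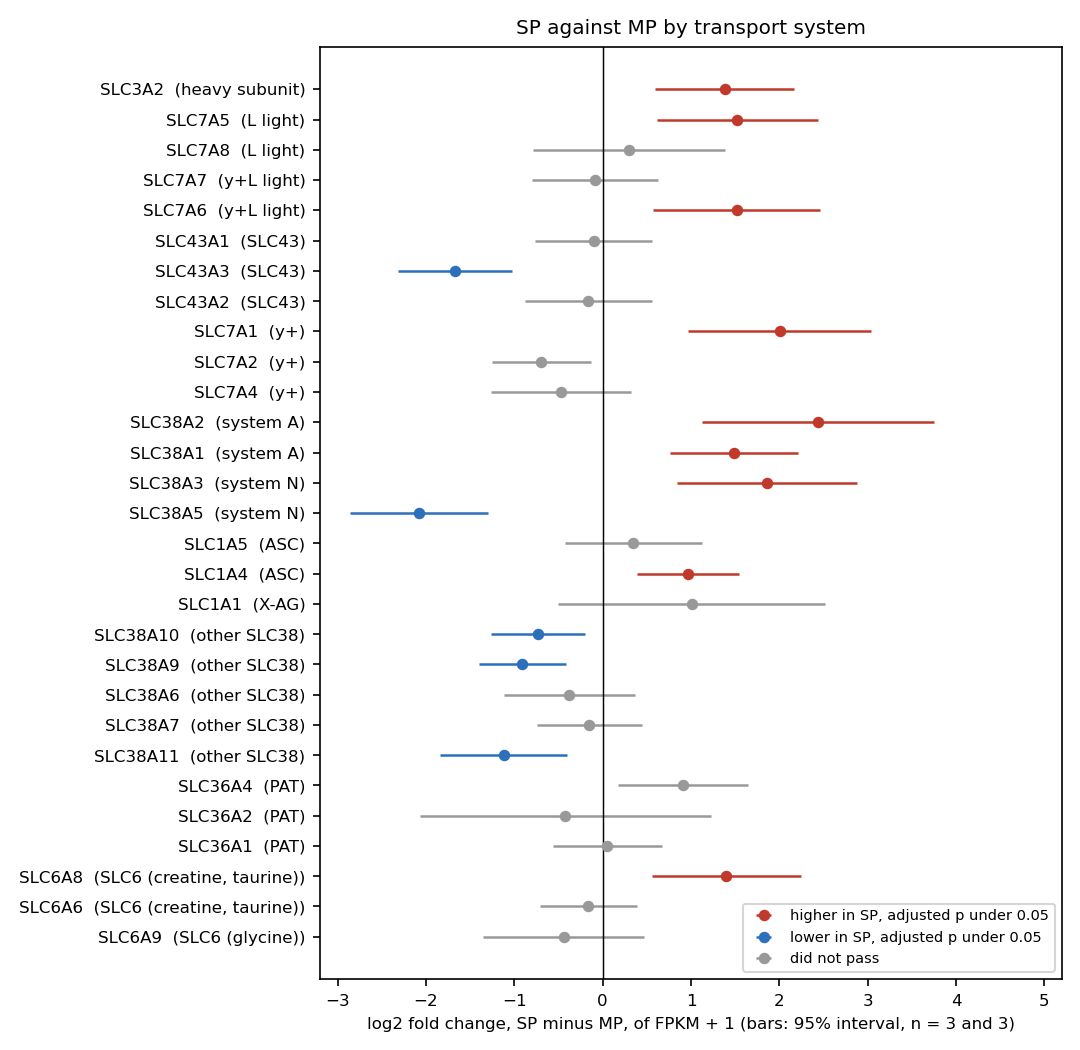
Log2 fold change of FPKM + 1, SP minus MP, for the 29 tested transporters by system, with 95% intervals from limma over 3 and 3 libraries. Red marks the 9 called higher in SP, blue the 5 called lower and grey the 15 that did not pass; within systems L, y+L, N and y+ members lie at different places.

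System y+ carries arginine, lysine and ornithine. SLC7A1 (CAT1, chromosome 12, listed locus 30904423 to 30996702), its main carrier in most tissues, was at 124, 89.7 and 91.9 FPKM in SP and at 13.5, 20.6 and 51.2 FPKM in MP. Every SP library lay above every MP library, and MP replicate 3 was again the highest of MP. It rose by 2.00 ± 0.45 (SE; limma adjusted p = 0.0128), a call lost without replicate number 1 or 2 in both groups (0.0870 and 0.0905). SLC7A2 (CAT2), a carrier known from macrophages and liver, was at 0.568, 0.960 and 1.38 FPKM in SP and at 1.61, 2.38 and 2.53 FPKM in MP. These groups did not overlap, yet its log2 fold change of −0.70 did not pass (95% interval −1.26 to −0.14; limma adjusted p = 0.0532). The log2 ratio of SLC7A1 to SLC7A2 was 5.71 ± 0.54 in SP and 3.01 ± 0.76 in MP (SD, n = 3 each), without overlap (exact permutation p = 0.1; 0.2 adjusted over 12 pairs). SLC7A4, an orphan relative, did not pass (log2 fold change −0.47). SLC7A3 was listed at 0 in SP and in MP replicate 3 and was at 0.733 and 0.285 FPKM in MP replicates 1 and 2, and SLC7A14 was listed at 0 throughout.

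System ASC exchanges alanine, serine, cysteine and glutamine. SLC1A5 (ASCT2, chromosome 18, 53864326 to 53875875), a main entry route of glutamine, was at 177, 118 and 95.6 FPKM in SP and at 69.0, 103 and 135 FPKM in MP. The groups overlapped, and the log2 fold change of 0.35 did not pass (95% interval −0.42 to 1.12; limma adjusted p = 0.425). It ranked behind SLC3A2 and SLC38A2 in SP and behind SLC3A2 in MP, where it and SLC38A2 changed places between libraries. SLC1A4 (ASCT1, chromosome 11, 63379682 to 63409620) was at 5.19, 6.89 and 5.64 FPKM in SP and at 1.83, 2.5 and 3.40 FPKM in MP. It rose by 0.96 ± 0.25 (SE; limma adjusted p = 0.0206), without overlap, and its call was lost without SP replicates 2 or 3 or MP replicates 1 or 2 (0.0681, 0.0558, 0.0578 and 0.0566). SLC1A5 still held at least 94.4% of the FPKM of ASC in every library.

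Of the acidic carriers of system X-AG, which take up glutamate and aspartate, SLC1A1 (EAAT3, chromosome 8, listed locus 39858145 to 40002800) was alone in passing the filter. Its listed locus is shared with LOC100139009, PLPP6 and SPATA6L, and how reads were divided between them is not given. LOC100139009 was at 5.27, 5.55 and 4.07 FPKM in SP and at 18.0, 12.2 and 16.7 FPKM in MP. SLC1A1 was at 4.05, 20.8 and 12.6 FPKM in SP and at 2.72, 12.1 and 2.76 FPKM in MP, with replicate 2 the highest in both groups. The log2 fold change of 1.01 did not pass (95% interval −0.50 to 2.52; limma adjusted p = 0.244). The median of 15 tested epithelial markers was likewise highest in replicate 2 of both groups, at 14.0, 71.8 and 61.3 FPKM in SP and at 50.6, 121 and 38.6 FPKM in MP. Within SP, however, ELF3, ESRP1, FOXA2, KRT18 and MUC1 of these markers were highest in replicate 3. The part of epithelial cells was not tested. SLC1A3 (EAAT1) did not exceed 0.379 FPKM, SLC1A2 and SLC1A7 did not exceed 0.00853 and 0.151 FPKM, and SLC1A6 was listed at 0 throughout.

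In the SLC43 family 1 of 3 tested genes fell. SLC43A3 (chromosome 15, 80673387 to 80692505), which despite its family is known as a carrier of purine bases, was at 1.81, 1.39 and 2.98 FPKM in SP and at 10.9, 7.68 and 7.42 FPKM in MP. It fell by 1.67 ± 0.28 (SE; limma adjusted p = 0.00512), without overlap, a call that was lost among 17 alternatives in 1, without replicate number 2 in both groups (0.0534). SLC43A1 (LAT3), a facilitative carrier of leucine and its kin, was at 11.2, 6.41 and 8.53 FPKM in SP and at 12.3, 8.49 and 7.43 FPKM in MP. Its log2 fold change was −0.10 (95% interval −0.76 to 0.56). SLC43A2 (LAT4) was between 0.645 and 2.01 FPKM in the 6 libraries and did not pass (log2 fold change −0.16). SLC43A1 made up 69.3% to 75.9% of the family's FPKM in SP and 45.5% to 51.3% in MP.

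**Figure D3:**
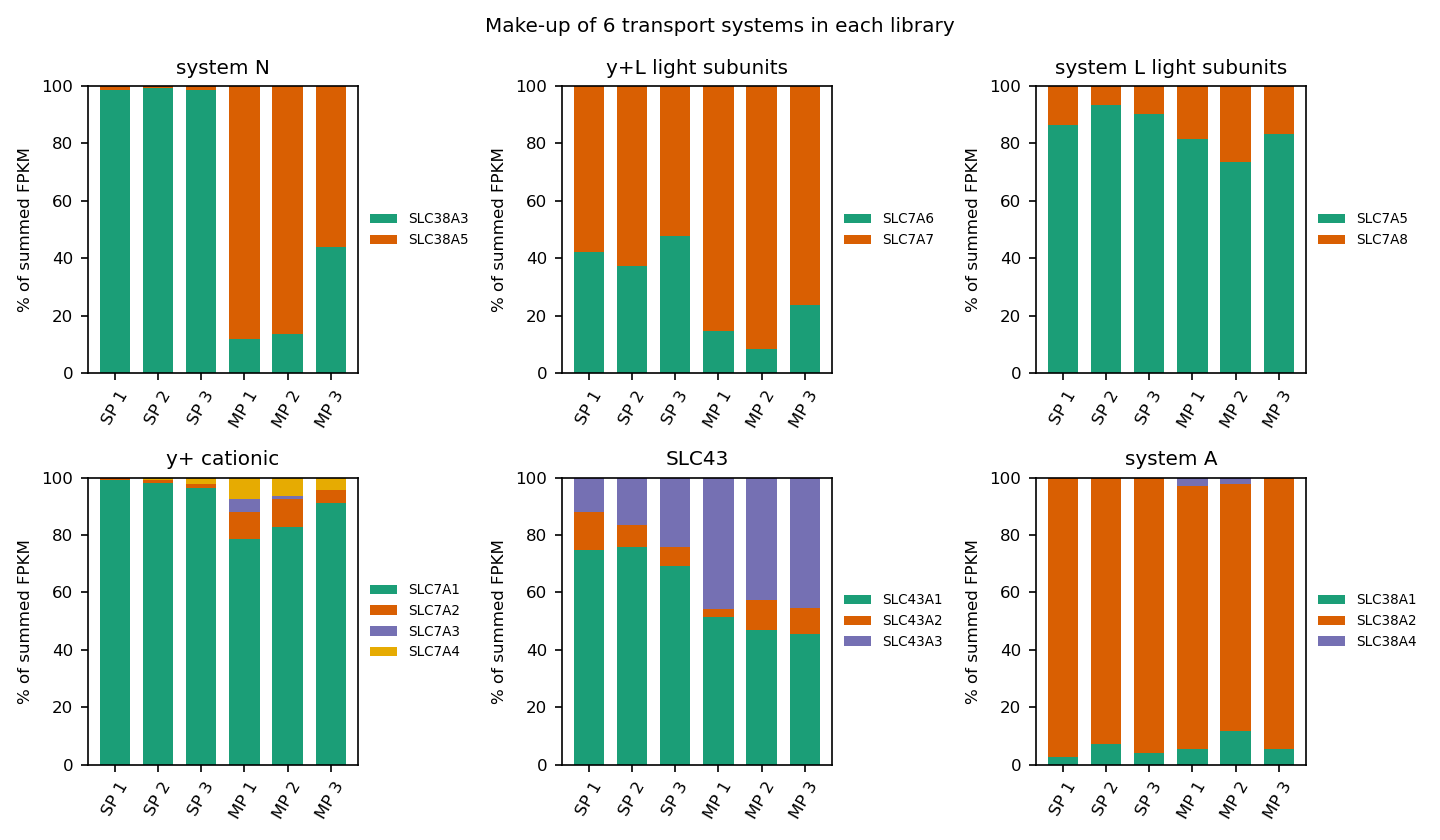
Share of each member in the summed FPKM of its transport system, in percent, for 6 systems; each bar is 1 library. SLC38A3 fills at least 98.7% of system N in SP and 11.9% to 43.9% in MP, and SLC7A6 holds 37.5% to 47.9% of y+L in SP and 8.56% to 24.0% in MP.

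The SLC38 members outside systems A and N were low. Of 5 tested, 3 fell, or 60%, against 18.7% of all tested genes called lower. The filter fixed the direction of 1 of these 3 in advance. SLC38A9 (chromosome 20, 23441009 to 23542898), the lysosomal arginine sensor, was at 1.49, 2.07 and 1.36 FPKM in SP and at 4.14, 4.03 and 3.64 FPKM in MP. It fell by 0.91 ± 0.21 (SE; limma adjusted p = 0.0148), and the MP libraries lay close together. Its call was lost without SP replicate 1 or 3 (0.0510 and 0.0557). SLC38A10 (chromosome 19, 51437149 to 51478790) was at 5.21, 4.39 and 4.80 FPKM in SP and at 10.7, 7.45 and 7.99 FPKM in MP, without overlap, a fall of 0.73 ± 0.23 (SE; limma adjusted p = 0.0384). This call held in 6 of 17 alternatives. It was lost with FPKM rescaled to an equal sum (0.146), without mitochondrially encoded and ribosomal protein genes (0.0692), with no filter on low values (0.0578) and without SP replicates 1, 2 or 3 or MP replicates 1 or 2 (0.0604 to 0.110). SLC38A11 (chromosome 2, 31290315 to 31348856), a member of unsettled function, was at 0.261, 0.535 and 0.800 FPKM in SP and at 2.15, 3.94 and 1.31 FPKM in MP. It fell by 1.12 ± 0.31 (SE; limma adjusted p = 0.0256), with its direction fixed in advance by the filter, and lost its call without SP replicates 1 or 2 or MP replicates 1 or 2 (0.0828, 0.0642, 0.0557 and 0.0636) and with no filter (0.0595). SLC38A7, a lysosomal exporter of glutamine, and SLC38A6 did not pass (log2 fold changes −0.15 and −0.38). SLC38A8 did not exceed 0.167 FPKM.

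The SLC36 family, known by name as the proton-coupled amino acid carriers, had no member past the threshold. SLC36A4 (PAT4, chromosome 29, 1701573 to 1743386) was the most abundant, at 14.5, 11.4 and 11.95 FPKM in SP and at 4.74, 4.74 and 10.4 FPKM in MP. The groups did not overlap and the log2 fold change was 0.91 (95% interval 0.17 to 1.65; limma adjusted p = 0.0549). It passed without MP replicate 3 (0.00892), without replicate number 3 in both groups (0.0320) and with FPKM rescaled to an equal sum (0.0195). SLC36A1 was between 0.792 and 2.01 FPKM and did not pass (log2 fold change 0.05). SLC36A2 was listed at 0 in SP replicate 1, had 3.30 and 2.08 FPKM in the rest of SP, and in MP had 0.723, 7.45 and 1.19 FPKM. It was highest in replicate 2 of both groups, as were SLC1A1 and the median of the epithelial markers, though not every such marker. SLC36A3 did not exceed 0.141 FPKM.

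In SLC6, the sodium- and chloride-driven family of neurotransmitter, osmolyte and amino acid carriers, 16 of 19 genes failed the filter. SLC6A8 (chromosome X, 36914289 to 36921866), which carries creatine, was at 36.5, 21.0 and 13.4 FPKM in SP and at 8.71, 8.60 and 5.93 FPKM in MP. It rose by 1.40 ± 0.37 (SE; limma adjusted p = 0.0212), without overlap, and lost its call without SP replicate 1 or 2 (0.0559 and 0.0534). SLC6A6, the taurine carrier, was at 1.19, 1.08 and 1.56 FPKM in SP and at 1.68, 2.08 and 0.975 FPKM in MP and did not pass. SLC6A9 (GlyT1), the glycine carrier, was at 5.71, 1.90 and 3.70 FPKM in SP and at 4.90, 3.25 and 8.15 FPKM in MP, with a log2 fold change of −0.44 (95% interval −1.36 to 0.47). The monoamine carriers SLC6A2, SLC6A3 and SLC6A4 did not exceed 0.293, 0.108 and 0.503 FPKM. SLC6A16 reached 1.02 FPKM in MP replicate 2. The broad amino acid carriers of epithelia, SLC6A14 and SLC6A19, did not exceed 0.487 and 0.0135 FPKM, and SLC6A5, SLC6A11 and SLC6A18 were listed at 0 in all 6 libraries. The SLC6 genes SLC6A7, SLC6A12, SLC6A13, SLC6A15, SLC6A17 and SLC6A20, did not exceed 0.594 FPKM.

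The libraries within a group were not alike in these genes. In 8 of the 9 transporters that rose, SP replicate 1 was the highest SP library, SLC1A4 being the exception, and in 8 of the 9 MP replicate 3 was the highest MP library, SLC6A8 being the exception. Over all 2490 genes that rose these shares were 70.0% and 66.5%. Of the 5 that fell, 4 were highest in MP replicate 1, which held the highest sum of fibroblast markers, and SLC38A11 was highest in MP replicate 2. Among the 2269 tested genes that fell, 51.6% were highest in MP replicate 1.

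Genes that sense and use amino acids were examined beside the carriers. Over 7 lists 115 of 136 genes were tested, of which 24 rose and 18 fell, or 36.5% against the 39.2% of all tested genes. With FPKM rescaled to an equal sum, which moves the median of all tested genes to 0.20, the counts were 32 and 11. Without 1 library they ranged from 8 to 23 higher and from 11 to 22 lower, with 8, 13, 11 and 13 higher without SP replicates 1 and 2 and MP replicates 1 and 2, and 11 lower without SP replicate 2 or MP replicate 1. By list, 18.2% to 46.2% of the tested genes were called.

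Among 17 tested enzymes of glutamine, glutamate and glutathione, 5 rose and GSS (glutathione synthetase) fell. These were 29.4% higher and 5.88% lower, against 20.5% and 18.7% of all tested genes. In all 35.3% were called, against 39.2%. GCLM and GCLC, the subunits of the first enzyme of glutathione synthesis, rose by 2.09 ± 0.35 and 1.41 ± 0.25 (SE; limma adjusted p = 0.00542 and 0.00614). GCLM stood at 24.1, 25.9 and 24.1 FPKM in SP and at 2.68, 5.08 and 8.78 FPKM in MP, so the SP libraries were close together. GLUD1 and CTH also rose, by 0.86 and 1.36, in 11 and 10 of 17 alternatives as well. Both lost the call without SP replicates 1 or 2 or MP replicates 1 or 2 (limma adjusted p = 0.0638 to 0.0974), and GSS without SP replicates 2 or 3 or MP replicate 1 (0.0533 to 0.0740).

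Of 13 tested genes of the metabolism of arginine, which SLC7A1 brings in, and of polyamines, 5 rose and GAMT fell. These were 38.5% higher and 7.69% lower, against 20.5% and 18.7% of all tested genes. NOS3, the endothelial nitric oxide synthase that uses arginine, was at 26.3, 30.1 and 28.6 FPKM in SP and at 2.53, 4.96 and 12.7 FPKM in MP, a rise of 2.15 ± 0.46 (SE; limma adjusted p = 0.0107). AMD1 and ODC1, the rate-setting enzymes of polyamine synthesis, rose by 1.28 and 1.15, and ASS1 and AZIN1 by 1.04 and 0.81. The calls of ODC1, ASS1 and AZIN1 held in 10, 9 and 6 of 17 alternatives. ODC1 and ASS1 lost theirs without SP replicates 1 or 2 or MP replicates 1 or 2 (limma adjusted p = 0.0634 to 0.114), and AZIN1 without any 1 of the 6 libraries (0.0603 to 0.135). GAMT, which makes the creatine that SLC6A8 carries, was at 7.90, 11.6 and 7.86 FPKM in SP and at 30.8, 37.5 and 44.0 FPKM in MP and fell by 1.93 ± 0.25 (SE; limma adjusted p = 0.00262). SLC6A8 and GAMT were thus called in opposite directions. GATM, also a creatine enzyme of this list and named after its values were seen, did not pass (log2 fold change −0.48, limma adjusted p = 0.628). It was at 0.355, 5.42 and 6.69 FPKM in SP and at 2.41, 12.1 and 3.05 FPKM in MP, with overlap.

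In the serine, glycine and proline list 5 of 13 tested genes fell and MTHFD2 rose. These were 38.5% lower and 7.69% higher, against 18.7% and 20.5% of all tested genes. The largest fall was in P4HA3, a collagen prolyl hydroxylase (log2 fold change −3.34), followed by P4HA2, ALDH18A1, SHMT2 and PYCR3 (−1.38 to −0.73). SHMT2 and PYCR3 were called in 6 and 7 of 17 alternatives, and each lost its call in 5 of the 6 fits without 1 library, SHMT2 holding without MP replicate 3 and PYCR3 without MP replicate 2 (limma adjusted p of the others 0.0545 to 0.129). MTHFD2 lost its call without SP replicates 1 or 2 or MP replicates 1 or 2 (0.0602 to 0.0781). In the branched-chain and tryptophan list of 9, BCAT2 and IVD, enzymes of leucine breakdown, fell by 1.96 and 1.01. WARS, the interferon-responsive tryptophanyl-tRNA synthetase, rose by 2.28. The called genes made up 33.3% of this list, against 39.2% of all tested genes. P4HA1, a further collagen prolyl hydroxylase of the serine, glycine and proline list, was named after its values were seen. It did not pass (log2 fold change 0.46, with overlap). Fibroblast markers fell in the same libraries as P4HA2 and P4HA3, and the part of these markers was not tested.

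The GCN2-ATF4 route, by which cells short of amino acids raise carriers such as SLC38A2, SLC7A1 and SLC7A5, had 35.3% of its 17 tested genes called, 23.5% higher and 11.8% lower, near the 39.2%, 20.5% and 18.7% of all tested genes. Of these genes VLDLR, DDIT3, CHAC1 and GCN1 rose (log2 fold changes 2.05, 1.00, 1.16 and 0.69) and NUPR1 and IMPACT fell (−3.31 and −0.81). CHAC1 was called in 9 of 17 alternatives, IMPACT in 6 of 16 and GCN1 in 4 of 16. CHAC1 lost its call without SP replicates 1 or 2 or MP replicates 1 or 2, IMPACT without SP replicates 1 or 3 or MP replicates 1 or 2 and GCN1 without any 1 of the 6 libraries (limma adjusted p = 0.0560 to 0.125). ATF4 itself, named after its values were seen, was at 1884, 1875 and 1514 FPKM in SP and at 1082, 1208 and 1329 FPKM in MP, without overlap, and did not pass (log2 fold change 0.54, limma adjusted p = 0.0875). ASNS, its textbook target, likewise named afterwards, was at 35.2, 48.2 and 35.9 FPKM in SP and at 27.8, 24.0 and 50.7 FPKM in MP, with overlap.

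Of 35 tested genes of lysosomal amino acid sensing 7 rose and 6 fell, 37.1% in all, near the 39.2% of all tested genes. FNIP1, the partner of folliculin, was at 15.3, 13.8 and 14.6 FPKM in SP and at 2.96, 2.87 and 5.25 FPKM in MP, a rise of 1.76 ± 0.26 (SE; limma adjusted p = 0.00358). LAMTOR4, a subunit of the Ragulator scaffold that holds SLC38A9 and the Rag GTPases on the lysosome, fell by 1.64 ± 0.25 (SE; limma adjusted p = 0.00396), and MITF, a lysosomal gene regulator, by 1.76 ± 0.35 (SE; limma adjusted p = 0.00864). TFEB and TFE3, also lysosomal gene regulators of this list, were named after their values were seen. TFEB went the other way from MITF and rose by 1.14 (limma adjusted p = 0.0171). Its call was lost without SP replicate 1 (0.0612). TFE3 did not pass (log2 fold change 0.43). Of 11 other amino acid and peptide carriers the peptide carrier SLC15A1 rose, at 1.23 to 2.35 FPKM in SP and under 1 FPKM in every MP library, so that the filter fixed its direction. SLC15A3, a lysosomal peptide and histidine carrier of immune cells, fell by 1.58, so that 18.2% of the 11 were called. Of the 20 genes that the naming rule picks in these lists, 15 had the same call without any single library; DDIT3, P4HA2, ALDH18A1, WARS and IVD did not. DDIT3 lost its call without SP replicates 1, 2 or 3 or MP replicate 1 (0.0579 to 0.0771), P4HA2 without SP replicate 2 (0.0506), and ALDH18A1 and WARS each without SP replicates 1 or 2 or MP replicate 1 (0.0528 to 0.0633). IVD lost it without SP replicates 1 or 2 or MP replicates 1 or 2 (0.0726 to 0.0895) and with mitochondrially encoded genes and those of ribosomal proteins left out (0.0606). With FPKM rescaled ALDH18A1 and IVD were not called (0.0724 and 0.108), nor was WARS with no filter (0.0561).

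**Figure D4:**
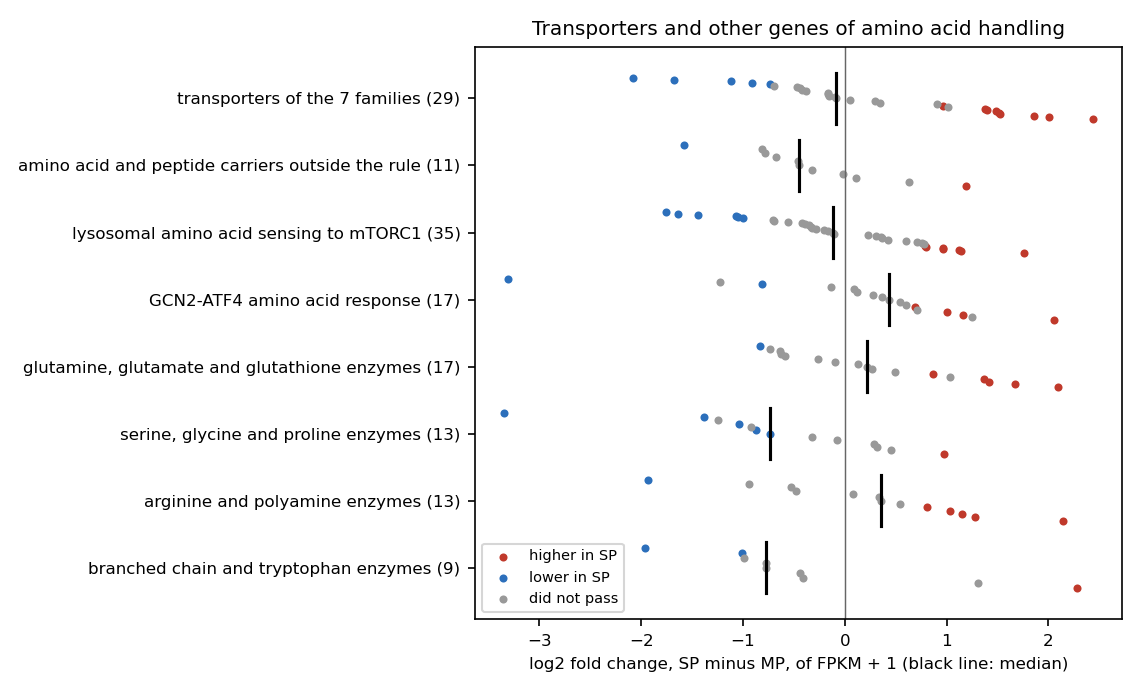
Log2 fold change of FPKM + 1, SP minus MP, of the tested transporters and of 7 lists of other amino acid genes, 1 point per gene, with a black line at each median and the number tested in brackets. Red points passed as higher in SP and blue points as lower; both colours occur in every list.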

How the data were processed

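RNA of 3 SP and 3 MP libraries was made into stranded poly(A) libraries, per the labels' protocols. The deposited values are FPKM per gene, per the file headers; these name no step that scales 1 library to another. Per the submitters' processing notes cutadapt 2.5, HISAT2 2.1.0 and build ARS-UCD1.2 were used; what computed the FPKM, from which annotation and with which strand setting is not given in the sources used here. A gene's FPKM also depends on how abundant the remaining genes of its library are. The row without a gene name (0.185% to 1.91% of values) was left out. Depth was estimated from ratios of the lowest values and tested on simulated data; no counts were used, so no count test was run. An exact 0 is written as listed at 0.

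Groups and replicate numbers came from the titles. A gene was tested if it reached 1 FPKM in 3 or more libraries. limma 3.58.1 (R 4.3.3; variance trend, two-sided) was run on log2(FPKM + 1), adjusted by Benjamini-Hochberg over 12127 genes at 0.05. On simulated data for this comparison 200 of 12127 genes were given a change. The fit recovered 8% of genes given a log2 change of 1, 78% at 2, 88% at 3 and 96% at 4. Of the calls, 4.93% were unchanged genes. In the real data 39.2% of genes were called, which eases the adjusted threshold, so these shares do not give the power reached here. Ratios of 2 transporters in 12 pairs were compared by exact permutation. Named are every called transporter, the most abundant of each system, and up to 3 called genes of each other list by smallest p; others were added by count or as stated. The transporters and lists were chosen with earlier results of these data known. File starts, counted from 0, were raised by 1; loci span introns and 21 of the 58 are shared with another gene. Alternatives were other pseudocounts, filters and scalings, a replicate block and left-out libraries; a left-out library kept the set of tested genes. A planned promoter motif search was not run. Values of 2 genes counted in the totals are not reported here.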

Additional observations from a re-analysis of the deposited data

How the results depend on the processing

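For the 29 tested transporters, 16 or 17 alternatives each gave 478 results. Of these, 416 kept their side of the threshold, 58 lost a call and 4 gained one. All 58 losses fell on the 14 called transporters, as the others had no call to lose. No called transporter changed direction in any of the alternatives run. Since SP and MP did not overlap for any of the 14, leaving out libraries could not have reversed them. Of the 14 called transporters SLC38A5, whose direction the filter fixed in advance, was called in all its alternatives, and 6 kept their call without any single library. The higher count stayed at 9 with a pseudocount of 0.1, no filter, quantile normalization, no variance trend and with mitochondrially encoded genes and those of ribosomal proteins left out. With a mean of at least 5 FPKM the higher count was 6 and the lower 2, since SLC38A3, SLC1A4, SLC7A6, SLC38A5, SLC38A9 and SLC38A11 were then not tested. Left-out replicates, single or by number in both groups, gave 0 to 10 higher and 1 to 5 lower transporters, and 2 to 23 higher and 4 to 22 lower genes in the other lists; the lowest counts come from fits of 2 against 2 libraries. FPKM rescaled to a sum of 1e6 gave 11 lower genes in the other lists against 18; this setting moved the median of all genes to 0.20, and called 3251 of all genes higher and 1525 lower against 2490 and 2269 as deposited. With the replicate number as a block 9 transporters were higher and 6 lower, SLC7A2 being added (limma adjusted p = 0.0428); the file columns give both groups the same numbers, 4 in place of 3 for the last, but nothing states what a number marks. For that reason the numbers were not taken to pair the libraries. Deviations from the group means of same-numbered libraries correlated at 0.105, 0.533 and −0.0854. The 0.533 of replicate 2 was the highest of all pairs, while SP replicate 1 correlated best with MP replicate 3. With so few libraries per group the deviations within a group depend on each other, so these correlations cannot decide whether the libraries are paired. The shallower SP libraries limit statements on genes under 1 FPKM.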

Other observations

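Several of the transporters lie near each other in the genome. SLC38A4, SLC38A2 and SLC38A1 follow each other on chromosome 5, with 364 kb between the first pair and 55.4 kb, holding no other named gene, between SLC38A2 and SLC38A1. The latter both rose in SP, while SLC38A4 was at most 0.0956 FPKM in SP and at least 0.456 FPKM in MP. On chromosome 15 SLC43A3, which fell, and SLC43A1, which did not pass, are 50.6 kb apart with 3 named genes and no tested gene between them. SLC7A8 and SLC7A7 on chromosome 10, 252 kb apart, both did not pass.

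With no filter on low values 3 further transporters passed in limma, all with low values. The log2 fold changes were −0.97 for SLC38A4 (limma adjusted p = 0.0451) and −0.32 for SLC7A10 (0.0437). SLC38A8 was listed at 0 in every MP library and was at 0.0946, 0.167 and 0.110 FPKM in SP (limma adjusted p = 0.0353). Of the 58 transporters 7 were listed at 0 in all SP libraries and 10 in all MP libraries, 5 of them in both.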
